A study of Mus musculus with 4 samples.

Results

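Messenger RNA of dermal cells from embryonic mouse foot was compared with that of dermal cells from embryonic mouse back, both from the sorted fractions labelled Axin2-positive. The comparison covered 8006 named gene units with at least 5 FPKM (sequenced fragments divided by transcript length and by library size) in 1 of the 2 libraries, out of 33126 named units. Units were chosen by level and status alone, and their values were divided by median-ratio factors before any ratio was taken. All 4 groups of the study came from mice that carry LacZ in Axin2, and cells were sorted by that reporter. Ventral skin of the foot at E17.5 and dorsal skin of the back at E14.5 were each divided into a fraction labelled Axin2-positive and a fraction labelled Axin2-negative. Skin was digested with hyaluronidase at 300 U/ml and collagenase at 1000 U/ml, held in PBS with 4% FBS, sorted into Trizol-LS and made into TruSeq mRNA libraries for a HiSeq 2000. Strain, litter, sex and pooling of embryos were not given in the sources used here. Each group holds 1 library, so no difference below has a replicate check and no test was made. Foot and back were also taken at different stages, so site and stage cannot be told apart.

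Canonical Wnt ligands stabilise beta-catenin, which enters the nucleus with TCF/LEF factors and switches on feedback genes such as Axin2, whose product returns beta-catenin to destruction. In the dermis this signal acts with BMP, FGF and hedgehog signals that pass between mesenchyme and epidermis and set which appendage forms. Dorsal back skin of the mouse makes hair follicles, while ventral foot skin makes eccrine sweat glands in its footpads. Dermal cells also keep a record of position in their homeobox and T-box genes, and build the collagens, elastic fibres and proteoglycans of the skin.

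The labels were checked against Axin2 and cell type markers. Axin2 stood at 9.65 FPKM (7.10 to 12.5) in the foot library labelled positive. In the foot library labelled negative it stood at 12.9 FPKM (10.2 to 15.3). The authors' bounds, given in brackets, overlap, so its transcript was not higher under the positive label but does not show the labels reversed. It stood at 4.49 and 3.13 FPKM in the back libraries labelled positive and negative. All 13 pan-fibroblast markers reached at least 1 FPKM in all 4 libraries. Keratinocyte markers summed to 7.83 FPKM over 12 genes in the foot library labelled positive, with 8 of the 12 listed at 0 (Cdh1 and Epcam among them). They summed to 53.5 FPKM in the back library labelled positive, with none at 0 and most of the sum from Krt10 and Perp. Endothelial markers summed to 1.05 and 9.27 FPKM over 12 genes, and leukocyte markers to 0.788 and 5.45 FPKM over 15, in the foot and back libraries labelled positive. Pericyte markers summed to 42.2 and 19.98 FPKM over 9 genes, muscle markers to 8.73 and 12.5 FPKM over 16, and mast cell markers to 3.15 and 26.2 FPKM over 9. The part of these cells in the differences below was not tested. Xist, the RNA of the inactive X chromosome, stood at 9.26 FPKM in the foot and 0.00172 FPKM in the back under the positive label. The Y-linked Ddx3y stood at 9.43 and 6.86 FPKM there. Under the negative label Xist stood at 6.36 and 0.00200 FPKM, and Ddx3y at 8.59 and 4.98 FPKM. A difference in the sex of the embryos therefore cannot be told apart from site and stage either. In bulk libraries such as these, fewer cells of a type and less RNA per cell cannot be told apart.

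Between the foot and back libraries labelled Axin2-positive, 1037 of 7701 genes were at least 2-fold higher in the foot (13.5%) and 1096 were at least 2-fold lower (14.2%), 27.7% in all. These counts leave out 165 genes listed at exactly 0 in the foot and 140 listed at 0 in the back. Ratios are log2 of scaled FPKM plus 1, and from here "higher" and "lower" mean at least 2-fold on that scale. The authors give each FPKM a lower and an upper bound, which cover counting and read assignment within a library. With bounds that did not overlap and values inside them, 803 genes were higher (10.4%) and 867 lower (11.3%). The median ratio over all 7701 genes was 0.05, and the central 90% of them lay between -1.73 and 1.72. Without scaling the split was 1567 higher and 754 lower, and with upper-quartile scaling it was 574 higher and 1942 lower. The foot library was the less precise, with a median half-width of the bounds of 23.1% against 8.998% in the back. Among 847 coding genes with a mean level below 5 FPKM, 32.2% were higher and 17.6% lower, against 8.29% and 5.70% of genes above 100 FPKM.

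**Figure D1:**
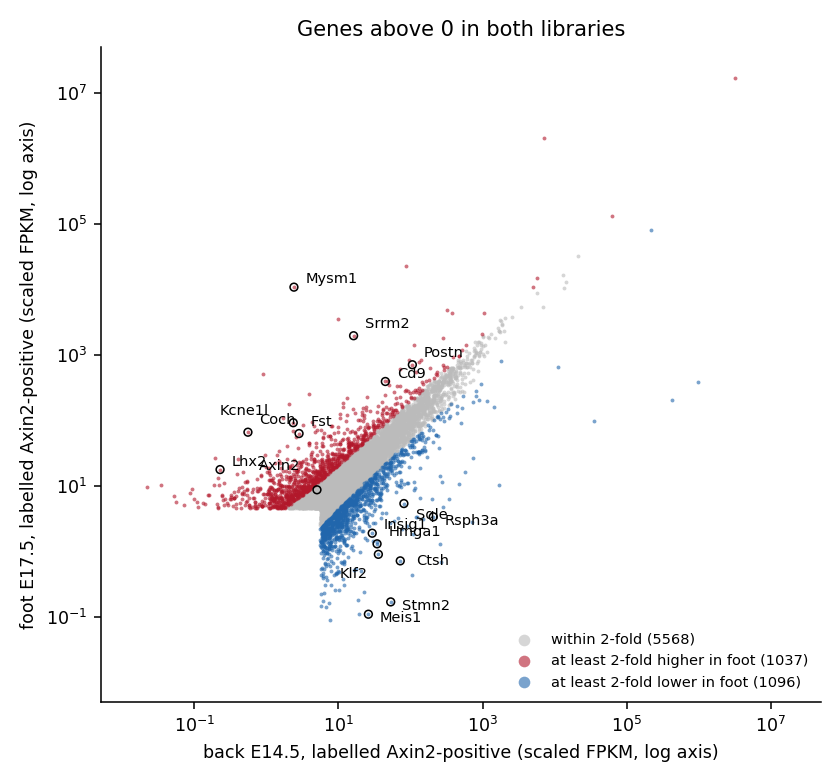
Scaled FPKM of each gene in the back library (horizontal, log axis) against the foot library (vertical, log axis), both labelled Axin2-positive. Points above the band are at least 2-fold higher in the foot (1037 genes) and points below it at least 2-fold lower (1096 genes).

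Single genes of position along the limb and trunk were far apart between foot and back. The lists of limb patterning and dorsal trunk dermis factors each held members that went either way. Of the Hox lists, 2 limb-end and 2 trunk members were tested, and each was listed at 0 in 1 skin, so no median was taken. Another 4 limb-end and 8 trunk members lay in joined units and were left out. Hoxa13 and Hoxd13, which pattern the end of the limb, stood at 21.8 and 41.3 FPKM in the foot library labelled positive and were listed at 0 in both back libraries. Hoxc8 and Hoxd8, which are used in the trunk, were listed at 0 in the foot library labelled positive and stood at 7.70 and 13.2 FPKM in the back. A listed 0 does not show absent expression, since genes in use in every cell were also listed at 0 in single libraries. The limb factor Tbx5 stood at 7.68 FPKM (bounds 6.29 to 9.05) in the foot and 0.0466 FPKM (0.0147 to 0.0810) in the back, a log2 ratio of 2.92 with a range of 2.62 to 3.18 from the bounds. Hand2, a limb bud factor, had 9.59 and 0.486 FPKM (log2 ratio 2.65), and the homeobox gene Prrx2 had 72.0 and 21.7 FPKM (1.39). Prrx1, its close relative, was not apart (49.95 and 44.4 FPKM).

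Meis1 (chromosome 11, 18780432 to 18918961 on mm9), a homeobox gene tied to proximal identity in limbs, was the reverse. It stood at 0.122 FPKM (0 to 1.74) in the foot and 23.2 FPKM (21.7 to 24.8) in the back, a log2 ratio of -4.61 (-4.85 to -3.29). Irx1 and Irx3, homeobox genes of the Iroquois family, were lower in the foot as well (log2 ratios -2.99 and -3.14). Of 8 limb patterning factors compared, 3 were higher and 2 lower in the foot, and their median was 0.07. Of 10 factors listed for dorsal trunk dermis, 3 were higher and 3 lower, and their median was -0.75. Among all genes 13.5% were higher and 14.2% lower. The members higher in the foot went against the name of the dorsal trunk list: Tbx18 (49.3 and 3.53 FPKM in foot and back), Meox2 (15.8 and 1.69 FPKM) and Osr2 (50.3 and 18.8 FPKM). Tbx15, a T-box gene that patterns dorsal skin, was within 2-fold (15.6 and 18.4 FPKM, log2 ratio -0.51).

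Lhx2, a LIM homeobox gene singled out after its values were seen, was low in the back. Its values were 19.7 FPKM (15.7 to 25.5) and 0.203 FPKM (0.0648 to 0.624), a log2 ratio of 3.94 (3.17 to 4.49). The helix-loop-helix factor gene Ebf1 had 25.9 and 5.21 FPKM (1.84). Among 7 mesenchymal transcription factors, 3 were higher and 1 lower in the foot, with a median of -0.10. The shares over all genes were 13.5% higher and 14.2% lower.

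Secreted BMP antagonists were higher in the foot in 4 of 6 members, with a median of 1.1, where 13.5% of all genes were higher. Fst (chromosome 13, 115242469 to 115249159 on mm9) encodes follistatin, which binds activins and some BMPs. It stood at 69.8 FPKM (63.9 to 75.6) in the foot and 2.53 FPKM (2.15 to 2.92) in the back, a log2 ratio of 4.07 (3.79 to 4.35). Sostdc1, an antagonist of BMP and Wnt signals, had 44.0 and 12.1 FPKM (1.5), and Nbl1, of the DAN family, had 58.5 and 20.1 FPKM (1.21). The fourth was Twsg1, at 29.99 and 11.7 FPKM, a ratio of 1.0. Of the other members 1 was lower in the foot. Under the negative label 4 were likewise higher and 1 lower (median 1.42). Of 5 BMP and GDF ligands, 2 were higher (Bmp5 and Bmp3, 3.27 and 1.66) and 1 lower (Inhba, the activin A subunit, -2.76). Of 5 BMP response genes, 3 were higher and none lower, with a median of 1.17, but in the pair labelled negative 1 was higher and 2 were lower, with a median of 0.46. Id4, an inhibitor of helix-loop-helix factors, stood at 16.8 FPKM in the foot and 2.30 FPKM in the back (2.18), while Id3 was within 2-fold (137 and 153 FPKM, -0.46). Id1 was within 2-fold as well (0.81). The members lower under the negative label were Id1 and Id3 (-2.11 and -1.06), and there Id4 was within 2-fold (0.46).

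TGF-beta genes were also higher in the foot in 5 of 9 members and lower in none, with a median of 1.1, beside 13.5% higher among all genes. The pair labelled negative had 4 higher and 1 lower (median 0.63). Tgfb3, a TGF-beta ligand, stood at 13.5 FPKM (11.6 to 15.5) in the foot and 0.985 FPKM (0.797 to 1.17) in the back, a log2 ratio of 2.66 (2.32 to 2.997). Tgfbi, a matrix protein induced by TGF-beta, had 55.4 and 8.07 FPKM (2.35). The other members that were higher were the ligand Tgfb2 (1.93), the latency protein Ltbp3 (1.54) and the receptor Tgfbr2 (1.1). Ltbp1 and Tgfbr1 were within 2-fold (0.04 and 0.18). Both FGF ligands with values, Fgf7 and Fgf18, were higher in the foot (2.37 and 1.21).

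Of 14 genes that report or feed back on Wnt signalling, 5 were lower in the foot and none was higher, with a median of -0.78, where 14.2% of all genes were lower. Axin2 itself had a log2 ratio of 0.70 (0.15 to 1.199), short of 2-fold. Nkd2, a feedback inhibitor of the pathway, stood above the back by less (0.43, range 0.08 to 0.76). Apcdd1, a membrane inhibitor of Wnt, stood at 26.6 FPKM (23.6 to 29.6) in the foot and 69.0 FPKM (67.6 to 71.9) in the back, a log2 ratio of -1.64 (-1.86 to -1.46). The others that were lower were the factor Sp5 (-2.35), the secreted Wnt deacylase Notum (-2.12), Myc (-1.72) and the receptor Tnfrsf19 (-1.37). Sp5, Notum, Myc and Tnfrsf19 reached the minimum of 5 FPKM in the back library alone. Lef1, a partner of beta-catenin, was within 2-fold (8.25 and 8.66 FPKM, -0.33). In the pair labelled negative 8 of the 14 were lower, Lef1 among them (-1.67), and Axin2 was higher (1.11).

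Secreted Wnt inhibitors divided. Dkk3, a dickkopf relative, stood at 18.9 FPKM in the foot and 2.30 FPKM in the back (log2 ratio 2.35), and Sfrp4 at 10.8 and 1.05 FPKM (2.31). Sfrp1 stood at 1.33 FPKM (0.844 to 1.78) and 13.8 FPKM (13.1 to 14.6), a log2 ratio of -2.90 (-3.30 to -2.58), and Sfrp2, Sfrp5 and Notum were lower as well. That made 2 of 9 higher and 4 lower, with a median of -0.48, beside 13.5% higher and 14.2% lower among all genes. Sfrp1, Sfrp5 and Notum reached the minimum of 5 FPKM in the back library alone, and Dkk3 and Sfrp4 in the foot library alone. Under the negative label 2 were higher and 3 lower (median -0.07), and Sfrp2 was within 2-fold (34.4 and 21.6 FPKM, -0.07). Rspo1, a secreted amplifier of Wnt signals, had 1.38 FPKM in the foot and 11.3 FPKM in the back (-2.59). Rspo3 of the same family was within 2-fold (8.80 and 5.46 FPKM). Among 6 hedgehog genes, the target factor Gli1 (-1.98), the co-receptor Boc (-2.04) and the inhibitor Sufu (-1.35) were lower, and the co-receptor Gas1 was higher (1.24). The range for Sufu was -1.92 to 0.01 and so took in no difference.

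The IGF axis was mixed in the same way. Igfbp2 and Igfbp3, carriers of insulin-like growth factors, were higher in the foot, at 135 against 20.4 FPKM (2.37) and 78.3 against 20.2 FPKM (1.61), and Igfbp6 was higher too (1.15). Igfbp7 stood at 86.3 FPKM (76.5 to 96.0) in the foot and was listed at 0 in the back, with an upper bound of 0.121 FPKM. Igfbp5 was the reverse, at 3.55 FPKM (2.80 to 4.30) in the foot and 34.5 FPKM (33.3 to 35.9) in the back, a log2 ratio of -3.23 (-3.54 to -2.97). Of 10 genes compared, 3 were higher and 5 lower in the foot, with a median of -1.16. Among all genes 13.5% were higher and 14.2% lower. Under the negative label the counts were 3 higher and 2 lower, and the median 0.08.

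**Figure D2:**
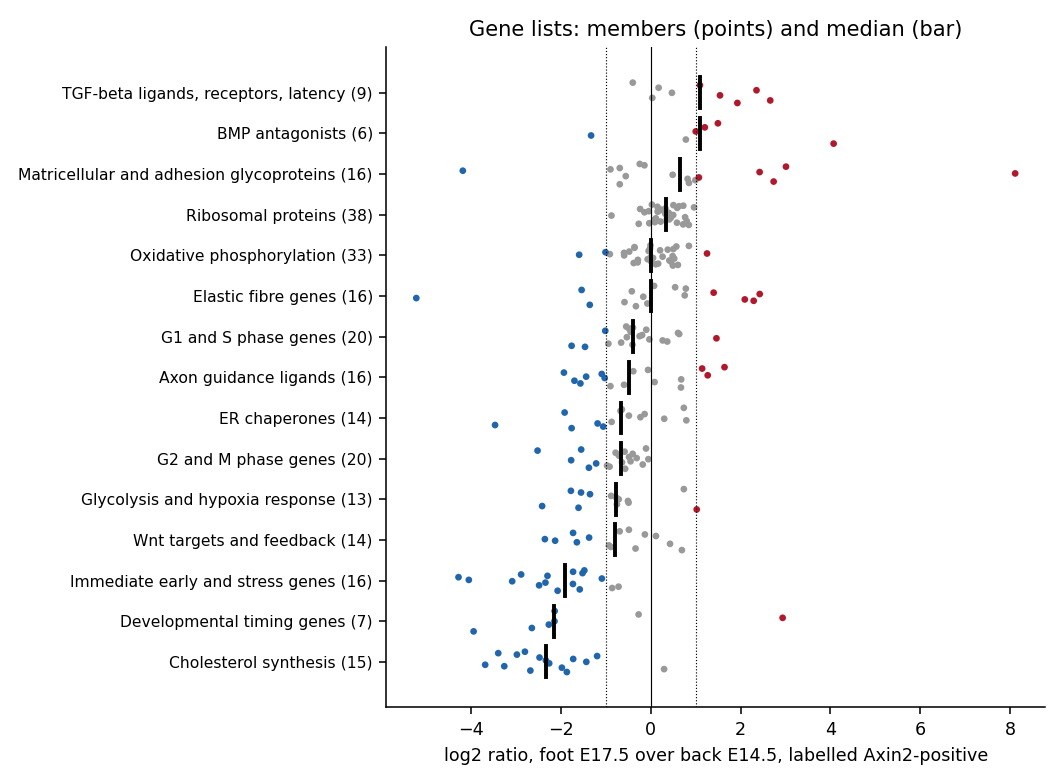
Log2 ratio of foot over back (horizontal) for the members of 15 gene lists (vertical), libraries labelled Axin2-positive. Points are genes, bars are list medians and dotted lines mark 2-fold, and the cholesterol and immediate early lists lie to the left with medians of -2.33 and -1.90.

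Genes of cholesterol synthesis were lower in the foot almost without exception. Of 15 genes compared, 14 were lower and none was higher, with a median of -2.33 beside 0.05 for all genes and a background of 14.2% lower. For 12 of the 14, the bounds did not overlap and both values lay inside them. The list holds the enzymes from acetyl-CoA to cholesterol and their regulators, and sterol depletion is known to raise many of these genes together through the factor SREBP2. Over the 15 genes the foot values reached 17.9 FPKM with a median of 4.30 FPKM. Back values reached 72.2 FPKM with a median of 18.9 FPKM and a lowest value of 5.49 FPKM. Many of the genes thus passed the minimum of 5 FPKM through the back library alone. The median half-width of their bounds was 43.3% in the foot and 8.57% in the back.

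The regulators were plainly apart. Srebf2 (chromosome 15, 81977695 to 82035806 on mm9), which encodes SREBP2, stood at 0.771 FPKM (0.343 to 1.24) in the foot and 9.62 FPKM (8.96 to 10.3) in the back, a log2 ratio of -2.79 (-3.26 to -2.38). Insig1 (chromosome 5, 28397951 to 28405201), which holds SREBP2 in the endoplasmic reticulum when sterol is plentiful, had 2.10 FPKM (1.32 to 2.87) and 26.2 FPKM (23.1 to 26.8), a ratio of -3.39 (-3.82 to -2.90). In neither gene did the ranges of foot and back overlap.

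Most enzymes that could be compared were lower in the foot. The mevalonate kinase gene Mvk stood at 4.04 FPKM (1.99 to 8.46) in the foot and 25.6 FPKM (21.9 to 29.4) in the back, a ratio of -2.67 (-3.60 to -1.55). The isomerase gene Idi1 had 1.79 and 8.30 FPKM (-1.97), and Fdps, which makes farnesyl diphosphate, had 4.30 and 40.8 FPKM (-3.25). Past squalene, Sqle had 5.95 and 72.2 FPKM (-3.68), Cyp51 6.06 and 26.8 FPKM (-2.25), Sc4mol 13.6 and 65.0 FPKM (-2.47) and Nsdhl 9.60 and 18.9 FPKM (-1.19). Near the end of the pathway, Sc5d and Dhcr7 had ratios of -1.72 and -1.43. For Sqle and Fdps the back value lies above its own upper bound (62.4 and 40.3 FPKM). Fdft1, squalene synthase, was listed at 0 in the foot with an upper bound of 0.154 FPKM, and stood at 16.8 FPKM in the back. Pmvk, phosphomevalonate kinase, was the exception at 17.9 and 11.6 FPKM, a ratio of 0.30 (-0.24 to 0.92).

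The libraries labelled Axin2-negative gave like values for these genes from other reads. Of the same 15 genes, 13 were lower in the foot there and none was higher, with a median of -2.32, and the background of lower genes was 12.3%. Srebf2 stood at 0.750 FPKM in the foot and 8.71 FPKM in the back, and Insig1 at 3.83 and 17.98 FPKM. Pmvk was lower in that pair (10.6 and 14.01 FPKM, -1.06), and Fdft1 was again listed at 0 in the foot. Nsdhl and Sc5d fell short of 2-fold (-0.94 and -0.89). Genes outside the list, looked at after the list's values were known, were less uniform. The desaturase gene Fads2 was lower (-2.90), while Fads1 and Stard4 were not apart (0.39 and 0.01).

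**Figure D3:**
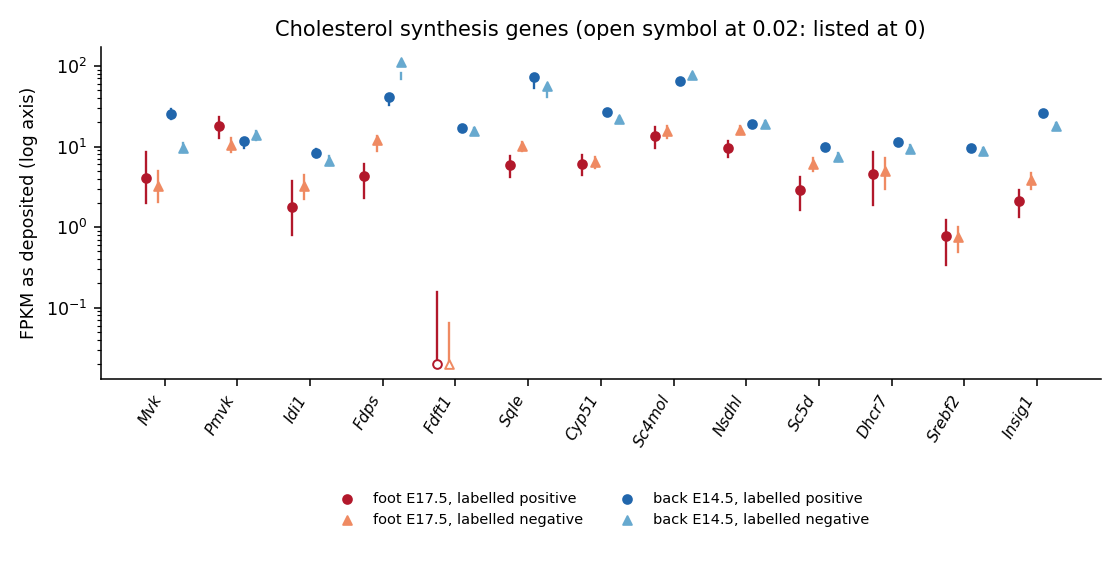
FPKM as deposited (log axis) of 13 cholesterol genes in the 4 libraries, with the authors' bounds as lines and an open symbol for a value listed at 0. For each gene shown but Pmvk, both foot libraries lie below both back libraries.

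Promoters of these genes were read from RefSeq on GRCm38.p6 to show which letters they share. Windows of 250 bases before the start were matched by symbol for 10 of the 16 genes. The motif CCAAT, known as the binding site of NF-Y, was in at least 1 window of all 10 on either strand, and 5 of the 10 held 2 or more copies. Pmvk, which was not lower in the foot, was among the 10 and held the motif too. Of 4228 coding genes tested here with a window, 41.7% held the motif and 15.9% held 2 or more, and of all 32851 windows 33.8% held it. TCACNCCAC, a form of the sterol regulatory element, was in none of the 10 and in 1.05% of all windows. Matches describe letters in these windows and show no binding. The windows of Mvk (chr5:114444019-114444268, plus strand), Idi1 (chr13:8885356-8885605, plus strand) and Nsdhl (chrX:72918271-72918520, plus strand) are shown because each holds several copies and each gene was lower in the foot. Sequences run 5′ to 3′, and capitals mark CCAAT or its reverse complement ATTGG.
Mvk: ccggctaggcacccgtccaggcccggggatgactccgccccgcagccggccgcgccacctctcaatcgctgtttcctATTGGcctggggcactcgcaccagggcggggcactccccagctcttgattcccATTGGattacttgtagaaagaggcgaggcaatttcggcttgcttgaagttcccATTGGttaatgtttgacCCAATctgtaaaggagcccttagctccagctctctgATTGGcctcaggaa
Idi1: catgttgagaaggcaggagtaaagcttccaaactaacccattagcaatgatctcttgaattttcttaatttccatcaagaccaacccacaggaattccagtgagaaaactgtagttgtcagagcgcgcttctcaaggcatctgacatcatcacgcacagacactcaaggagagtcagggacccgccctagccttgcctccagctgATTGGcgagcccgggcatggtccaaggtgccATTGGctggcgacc
Nsdhl: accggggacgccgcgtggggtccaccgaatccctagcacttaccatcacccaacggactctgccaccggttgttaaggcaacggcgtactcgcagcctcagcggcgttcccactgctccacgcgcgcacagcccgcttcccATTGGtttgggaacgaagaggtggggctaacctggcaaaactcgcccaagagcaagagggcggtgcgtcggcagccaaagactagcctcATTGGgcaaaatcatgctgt
Mvk held 5 copies, the nearest starting 14 bases before the gene's start. Idi1 held copies 45 and 14 bases before, and Nsdhl 109 and 20 bases before.

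Immediate early and stress genes were also lower in the foot in nearly all members. Of 16 genes compared, 14 were lower in the foot and none was higher, with a median of -1.90, and 13 of the 14 had bounds apart. Among all genes 14.2% were lower, and 11.3% with bounds apart. Many of the lower members, Klf2, Nr4a1 and Hspb1 among them, passed the minimum of 5 FPKM through the back library alone. Genes of this list switch on within minutes of growth factors or stress. They were listed as genes of cell dissociation stress too, and the skin was digested with enzymes and sorted. With 1 library a group, a difference in handling cannot be told apart from site or stage. Klf2 (chromosome 8, 74842931 to 74845555 on mm9), a Kruppel-like factor, stood at 0.998 FPKM (0.333 to 1.55) in the foot and 31.9 FPKM (29.6 to 34.3) in the back, a ratio of -4.27 (-4.92 to -3.82). Its relative Klf6 had 12.3 and 79.0 FPKM (-2.88), and the nuclear receptor gene Nr4a1 had 4.33 and 36.3 FPKM (-3.08). Hspb1, a small heat shock protein gene, had 0.198 and 16.4 FPKM (-4.04).

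AP-1 genes took part to different degrees. Fos stood at 8.59 FPKM (5.89 to 11.3) in the foot and 32.0 FPKM (30.2 to 34.2) in the back, a ratio of -2.07 (-2.63 to -1.63). Junb and Jund were listed at 0 in the foot and stood at 16.3 and 17.1 FPKM in the back, and Atf3 was listed at 0 in the foot as well. Egr1 and Ier2 did not reach 2-fold (-0.85 and -0.71). In the pair labelled negative 15 of the 16 were lower, beside 12.3% of all genes, with a median of -1.85, and Junb, Jund and Atf3 had values there (3.40, 6.73 and 3.93 FPKM in the foot). Egr1 did not recur: it stood at 17.55 and 6.98 FPKM in that pair, a ratio of 0.53.

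Developmental timing genes counted 5 of 7 members lower and 1 higher (median -2.14), where 14.2% of all genes were lower. Hmga1, Hmga2, Igf2bp2 and Igf2bp3 reached the minimum of 5 FPKM in the back library alone. In the pair labelled negative 3 of 6 were lower and 1 higher (median -1.25). Hmga1 (chromosome 17, 27693564 to 27700619 on mm9), a chromatin protein gene, stood at 1.44 FPKM (0.345 to 3.06) in the foot and 30.6 FPKM (28.6 to 32.7) in the back, a ratio of -3.93 (-4.84 to -3.13). It has near-identical copies in the genome, so its reads may be shared with them. Hmga2, of the same family, had 1.40 and 11.8 FPKM (-2.64), and the RNA-binding gene Igf2bp3 had 1.94 and 9.94 FPKM (-2.14). Hmga2 was within 2-fold in the pair labelled negative (0.667 and 1.18 FPKM, -0.73). Plagl1, an imprinted zinc finger gene that restrains growth, was the member higher in the foot, at 59.4 FPKM (57.9 to 73.4) and 5.52 FPKM (5.14 to 8.25), a ratio of 2.94 (2.39 to 3.32). It was the 1 member left when the half-width of the bounds was limited to 30% and values had to lie inside them, which turned the median to 2.94. Crabp1 (-2.13) was not kept, and its foot value lies above its own upper bound of 193 FPKM. Imprinted genes as a list showed no common direction, with 3 of 17 higher, 4 lower and a median of 0.02.

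Mitotic genes stood below the back in all 20 members after scaling, of which 5 reached 2-fold, and the median was -0.66. Among all genes 14.2% were lower. Without scaling Cdk1, Cdc20 and Prc1 stood above the back. Tpx2, a spindle assembly gene, stood at 11.5 FPKM (9.31 to 15.5) in the foot and 57.5 FPKM (52.0 to 63.1) in the back, a ratio of -2.51 (-2.92 to -1.98). The kinase gene Plk1 had 3.64 and 12.2 FPKM (-1.77), and Cdk1 was not apart (99.9 and 91.5 FPKM, -0.17). Of 20 genes of G1 and S phase, 3 were lower (Mcm2, Mcm3 and Fen1) and 1 was higher (Gins1), with a median of -0.40. Inhibitors of the cycle went both ways. Cdkn1c, which encodes the inhibitor p57, stood at 320 FPKM (304 to 337) in the foot and 103 FPKM (99.4 to 108) in the back (1.32), and Rb1 was also higher (1.3). Gadd45b and Gadd45g, growth arrest genes that stress also induces, were lower (-2.48 and -4.03).

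Lists that mark hair condensates and the layers of the dermis each held both higher and lower members. Among all genes 13.5% were higher and 14.2% lower. Of 9 condensate and papilla genes, 3 were higher in the foot and 2 lower, with a median of 0.34. Bmp3, the phosphatase gene Alpl and the repressor gene Prdm1 were higher (1.66, 1.98 and 1.76), while Inhba was lower (-2.76). The other lower gene, Crabp1, encodes a retinoic acid binding protein. It stood at 225 FPKM in the foot and 802 FPKM in the back (-2.13), with the foot value above its own upper bound of 193 FPKM. Upper dermis markers counted 1 of 8 higher and 3 lower (Apcdd1, Lrig1 and Ntn1), with a median of -0.09. Lower dermis and fascia markers counted 3 of 8 higher (Sfrp4, Mfap5 and Thbs4) and 2 lower (Dlk1 and Gpx3), with a median of -0.02. The foot value of Thbs4 lies above its own upper bound of 209 FPKM. Dlk1, a notch-like surface protein gene of that list, had 166 FPKM (154 to 178) and 294 FPKM (291 to 304), a ratio of -1.12, but 614 and 202 FPKM in the pair labelled negative (0.85). Under the negative label 4 of the lower dermis markers were higher and 1 lower (median 1.23). Condensate genes had 4 higher and 2 lower there (median 0.99), and upper dermis markers 2 higher and 3 lower (median 0.04). The shares over all genes in that pair were 10.1% higher and 12.3% lower.

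Matrix genes showed no single direction, and the elastic fibre list had a median of 0.00. Fbln2 and Fbln5, fibulins of elastic fibres, were higher in the foot, at 152 against 24.4 FPKM (2.29) and 52.6 against 9.29 FPKM (2.09). Mfap4, a microfibril protein gene, had 267 FPKM (251 to 284) and 39.6 FPKM (37.3 to 42.1), a ratio of 2.43 (2.25 to 2.60), and Mfap5 was higher as well (1.40). Efemp1, another fibulin, was far lower in the foot (3.42 and 135 FPKM, -5.21), though its back value lies above its own upper bound of 130 FPKM. Fbn1, the main fibrillin, had 8.08 FPKM (7.12 to 9.04) and 18.1 FPKM (17.54 to 18.9), a ratio of -1.35. In the pair labelled negative it was higher in the foot instead, at 58.8 and 6.29 FPKM (2.34). The elastic fibre median was 1.32 there, with 8 of 16 higher and 1 lower, where 10.1% of genes were higher.

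Matricellular genes, which tune adhesion without bearing load, were higher in 5 of 16 and lower in 1, where 13.5% of all genes were higher. Their median was 0.66, or -0.19 over members of at least 20 FPKM. Postn, periostin, stood at 784 FPKM (763 to 820) in the foot and 94.6 FPKM (91.5 to 99.1) in the back, a ratio of 2.74 (2.63 to 2.85). Ctgf had 12.3 and 1.14 FPKM (2.42), while Cyr61 of the same family went the other way (7.31 and 122 FPKM, -4.17) with a back value above its upper bound of 117 FPKM. Thbs4, a tendon thrombospondin, was listed at 572 FPKM in the foot, far above its own bounds of 153 to 209 FPKM, and at 0.795 FPKM in the back. Collagen I chains were apart in opposite directions in this pair: Col1a1 had 262 and 712 FPKM (-1.74), and Col1a2 had 2338 and 883 FPKM (1.1). Both chains were within 2-fold in the pair labelled negative (-0.10 and -0.32). The product is assembled from both chains, and at least 1 deposited value of each gene lies outside its own bounds. Of 12 other collagens 3 were higher and none lower, led by Col16a1 (71.6 and 7.77 FPKM, 2.77).

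Guidance cues for nerves went both ways by member. Ntf3, a neurotrophin, stood at 26.2 FPKM (21.7 to 30.6) in the foot and 6.18 FPKM (5.33 to 7.05) in the back (1.64), and Efna1 was also higher (1.27). Efna5, Sema6d, Sema3f and Ntn1 were lower (-1.93, -1.69, -1.56 and -1.43), and Slit3 and Efna2 by less (-1.02 and -1.09). That made 3 of 16 ligands higher and 6 lower, with a median of -0.49, beside 13.5% higher and 14.2% lower among all genes. The receptor Epha7 was higher in the foot (9.85 and 1.31 FPKM, 2.01). Of 12 chemokines and cytokines 2 were higher and 4 lower, among them Angptl4, an inhibitor of lipoprotein lipase (11.3 and 41.6 FPKM, -2.08).

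Ribosomal protein and oxidative phosphorylation genes were close between foot and back, while glycolysis and chaperone genes leaned lower in the foot. None of 38 ribosomal protein genes was 2-fold apart, and their median was 0.35, or -0.12 with upper-quartile scaling. Of 33 nuclear genes of oxidative phosphorylation 1 was higher and 2 lower, with a median of 0.01. Of 13 glycolysis and hypoxia genes 5 were lower and 1 higher, with a median of -0.76, where 14.2% of all genes were lower. Under the negative label 6 were lower and none was higher (median -0.63). The lactate dehydrogenase gene Ldha stood at 109 FPKM (100 to 122) and 259 FPKM (254 to 270), a ratio of -1.55. Of 14 chaperone and stress response genes of the endoplasmic reticulum 5 were lower and none higher (median -0.65). For 2 of the 5 the bounds did not overlap and both values lay inside them. The pair labelled negative had 1 lower and 1 higher (median -0.13). The chaperone gene Hspa5 had 143 and 394 FPKM (-1.76), and Canx had 10.5 and 102 FPKM (-3.46). Neither recurred at that size in the pair labelled negative, where Hspa5 had a ratio of -0.70 and Canx stood at 103 and 61.4 FPKM (0.00).

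Among single genes, the highest ratios were partly those of 1 library. Mysm1, a histone deubiquitinase gene, was listed at 11994 FPKM (6641 to 17155) in the foot library labelled positive but at 6.44 FPKM in the foot library labelled negative and 2.15 FPKM in the back. Srrm2 (2173 and 10.9 FPKM in the foot libraries) and Atp2c1 (281 and 3.37 FPKM) had the same pattern, as did Gm12529. Gm15415, Gcfc1 and the joined unit Gm16033 and Gm16034 stood at 77.0, 104 and 62.2 FPKM in the foot library labelled positive and at 4.70, 6.16 and 12.5 FPKM in the other. Vps45 stood at 92.8 and 25.6 FPKM.

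High ratios that both foot libraries shared belonged to Coch, Kcne1l, Fst and the antisense RNA Hoxa11as. Coch (chromosome 12, 52694360 to 52706760 on mm9), which encodes the secreted protein cochlin, stood at 73.1 FPKM (67.3 to 79.1) in the foot and 0.494 FPKM (0.214 to 1.74) in the back, a ratio of 5.44 (4.40 to 5.88). In the pair labelled negative it stood at 97.7 and 0.257 FPKM (5.82). Kcne1l, a potassium channel subunit gene, had 102 FPKM (93.4 to 111) and 2.10 FPKM (1.67 to 2.53), a ratio of 4.80, and 79.5 and 2.87 FPKM in the pair labelled negative. Hoxa11as had 29.3 and 0.170 FPKM, but strand was not stated for these counts, so its reads and those of the gene opposite cannot be told apart. Cd9, a tetraspanin gene picked after values were seen, was abundant and also shared, at 435 FPKM (412 to 460) in the foot and 39.9 FPKM (37.2 to 42.5) in the back (3.12), and 465 and 26.1 FPKM in the other pair (3.37).

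Signal genes of nerve, bone and inflammation that were also looked at after their values were known stood far apart and recurred. Tac1, the precursor gene of substance P, stood at 91.2 FPKM (80.7 to 102) in the foot and 7.09 FPKM (5.98 to 8.20) in the back, a ratio of 3.23 (2.87 to 3.60). Ramp1, a subunit of the CGRP receptor, had 17.8 and 0.421 FPKM (3.55), and Pthlh, which encodes a relative of parathyroid hormone, had 9.96 and 0.0830 FPKM (3.20). The annexin gene Anxa1 had 180.1 and 10.4 FPKM (3.70). In the pair labelled negative these ratios were 3.75, 3.85, 3.10 and 3.85 in that order.

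At the low end stood Stmn2 and Ctsh. Stmn2, a stathmin gene best known from neurons, stood at 0.187 FPKM (0 to 0.937) in the foot and 47.4 FPKM (44.3 to 50.4) in the back, a ratio of -5.53 (-5.85 to -4.77). Ctsh, a lysosomal protease gene, had 0.793 FPKM (0 to 3.96) and 64.3 FPKM (55.7 to 64.7), a ratio of -5.41. Both were low in the other foot library too (0.695 and 1.84 FPKM). The joined unit that holds the heat shock genes Hspa1a and Hspa1b had 2.03 and 97.7 FPKM. Rsph3a, Gm10800, Gm4799, Gm16869, Gm11470, Gm8783, Gm15801, Gm7335 and 2900097C17Rik were the others of the 12 lowest. Predicted genes and family members of this kind can share reads with near-identical copies, and Gm4799, Gm8783, Gm15801 and Gm7335 were high in the other foot library (4138, 81.0, 79.6 and 190 FPKM).

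Genes listed at 0 in 1 library were kept apart. In the back these were led by the joined mitochondrial unit of mt-Nd6, then Gm15567, Mir218-2, Cox8a, SNORD86 and Gm14167. Cox8a, a respiratory chain gene that every cell uses, was listed at 0 there beside 125 FPKM in the back library labelled negative. In the foot they were led by AF357425, 0610007N19Rik, Gm11702, Mir302a, Mir1906-2 and AF085738. Among coding genes of this kind, picked after values were seen, Pdlim3, a muscle LIM protein gene, stood at 129 and 99.9 FPKM in the foot libraries and at 0 and 0.221 FPKM in the back.

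The libraries labelled Axin2-negative, which share no library with those above, showed how far the ratios recurred between the same skins. Of 977 genes higher in the foot under the positive label and compared in both pairs, 763 had the same direction under the negative label (78.1%) and 379 were 2-fold higher there too (38.8%), while 38 were 2-fold lower. Of 1075 lower genes, 894 had the same direction (83.2%), 448 were 2-fold lower (41.7%) and 39 were 2-fold higher. Over all 7570 genes compared in both pairs, 10.1% were higher and 12.3% lower under the negative label. With bounds apart in both pairs, 265 of 5644 coding genes were higher in both (4.7%) and 289 were lower in both (5.12%). The fractions of a skin may come from the same embryos, so this is no replicate of the animals.

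**Figure D4:**
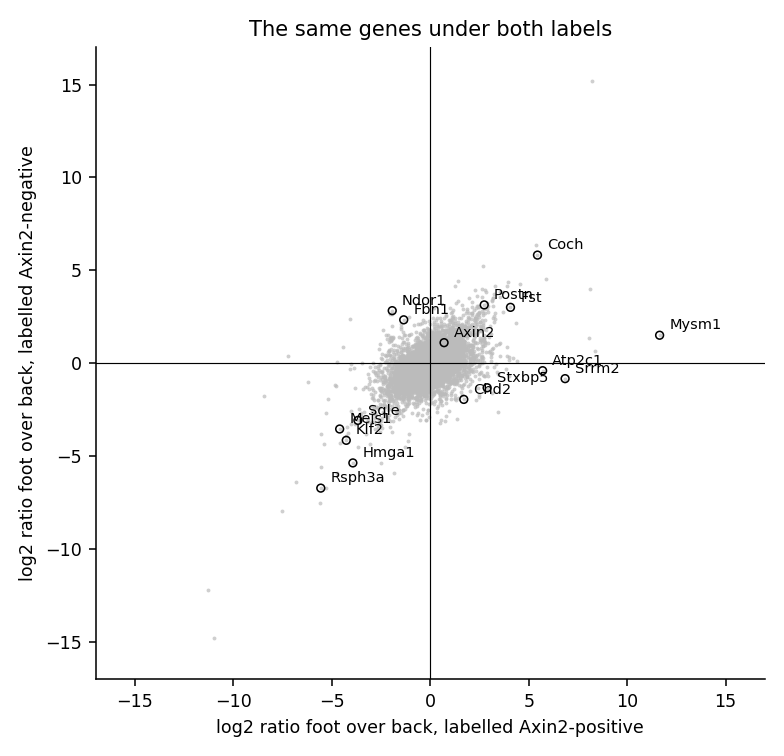
Log2 ratio of foot over back for the libraries labelled positive (horizontal) and labelled negative (vertical), 1 point for each of 7570 genes. Points in the upper right and lower left corners are 2-fold apart the same way in both pairs (379 higher and 448 lower).

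**Figure D5:**
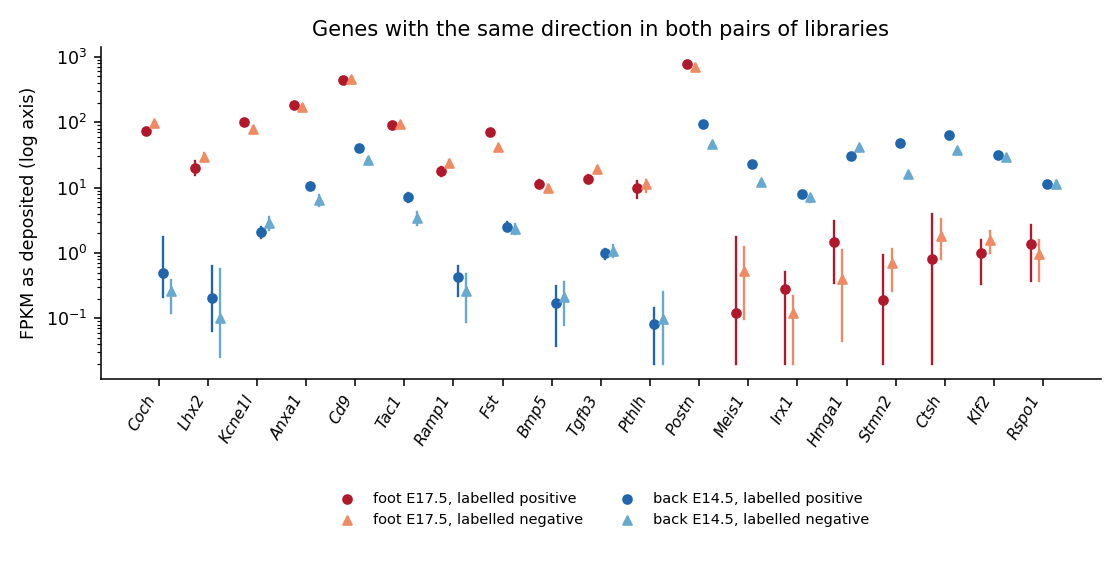
FPKM as deposited (log axis) of 19 genes in the 4 libraries, with the authors' bounds as lines. Coch, Lhx2, Tgfb3 and Postn are high in both foot libraries, and Meis1, Irx1, Hmga1, Stmn2, Ctsh, Klf2 and Rspo1 are high in both back libraries.

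Opposite directions were rare among well-bounded genes. Of 5644 coding genes compared in both pairs, 28 were 2-fold apart in opposite directions with bounds apart in each pair. Beside them, 265 were higher in both pairs and 289 lower in both. Of the 28, 16 were higher in the foot under the positive label and 12 lower.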

How the data were processed

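Gene expression was measured by RNA sequencing in 4 sorted dermal libraries, 1 in each group. The deposited unit is FPKM, with 2 bounds and a status beside each value, per the file headers. TopHat, Cufflinks and mm9 are named in the submitters' processing notes, and settings, annotation release, read depth and the confidence level of the bounds were not given in the sources used here. FPKM was summed per symbol over entries with status OK, joined loci of several genes stayed 1 unit, and 457 units with another status were left out. Values were divided by median-ratio factors from 4967 genes (1.10 and 0.891 for foot and back labelled positive, 1.32 and 0.785 for those labelled negative). The ratio was log2 with a pseudocount of 1 FPKM, for genes of at least 5 FPKM in 1 of the libraries, and its range sets the bounds of the libraries against each other. FPKM values are printed as deposited.

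Genes were named by a rule: Axin2, the 12 highest and 12 lowest ratios with bounds apart and at least 10 FPKM, the 6 highest genes listed at 0 in the other library, and from each list the members with the largest ratios, the most abundant and some within 2-fold. Others are said to be chosen later. Members and lists were chosen with earlier results of these data known. Protein-coding symbols came from GENCODE vM21 and RefSeq. Some list members are counted but not reported by name here. With 1 library a group there was no test. Scripts were tested on simulated data. Python 3.11.15, numpy 2.4.6, pandas 2.3.3 and matplotlib 3.10.9 were used.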

Additional observations from a re-analysis of the deposited data

Results flagged for a closer look

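Some genes went opposite ways under the 2 labels, with bounds apart in each pair, and none of these differences was tested because each group holds 1 library. Fbn1, the gene of fibrillin-1, was lower in the foot under the positive label (log2 ratio -1.35) and higher under the negative label (2.34). Ndor1 had ratios of -1.94 under the positive label and 2.83 under the negative. For Sfxn4 the ratios were -1.5 and 1.87 in that order. The reverse was seen for Chd2 (1.7 and -1.94), Hdac5 (1.6 and -1.68), Hist2h2bb (1.55 and -1.56) and Chn2 (2 and -1.51). Apart from Fbn1, these are the 6 of the 28 such coding genes whose smaller ratio was largest.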

How the results depend on the processing

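No paired analysis was possible because each group holds 1 library, so there are no replicate numbers to pair. Use of coding genes alone and of the libraries labelled negative was chosen after seeing the data. A pseudocount of 5 gave 573 higher and 584 lower genes, FPKM as deposited 1567 higher, upper-quartile scaling 574 higher and 1942 lower, and a minimum of 20 FPKM 445 and 382. With a pseudocount of 5 the medians were -1.41 (cholesterol), -1.23 (immediate early) and -1.51 (developmental timing). As deposited they were 1.39 (BMP antagonists), 0.28 (elastic) and 0.65 (ribosomal). With upper-quartile scaling they were 0.65 (BMP antagonists), -0.43 (elastic), -0.12 (ribosomal), -1.21 (glycolysis), -1.09 (G2 and M), -0.84 (G1 and S), 0.67 (TGF-beta), 0.25 (matricellular) and -1.11 (ER chaperones). A minimum of 20 FPKM gave 0.55 (elastic), 2.35 (TGF-beta), -0.19 (matricellular) and -1.02 (guidance ligands). BMP antagonists had 0.81 with a minimum of 1 FPKM and 0.79 with none, and developmental timing -0.92 with none. With well-bounded genes alone, the medians were -1.72 (cholesterol), 0.65 (elastic), -0.14 (matricellular) and -0.33 (Wnt targets), and 2.94 for developmental timing, which then rests on Plagl1 alone. In the libraries labelled negative, with members chosen by their level in that pair, unlike the medians given for it elsewhere, they were -1.60 (timing), 1.70 (elastic), -1.04 (G2 and M), 0.63 (TGF-beta) and 0.00012 (ER chaperones), and Fbn1 turned to 2.34. The foot library's wide bounds, with a median half-width of 39.7% below 5 FPKM, limit ratios of low genes. The cause of these shifts was not tested, other than that scaling moves ratios by 0.30 or -0.47 before the pseudocount is added. With the pseudocount the median over all genes was 0.33 as deposited and -0.38 with upper-quartile scaling, against 0.05.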

Other observations

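Adhesion, cytoskeletal, lipid and retinoid genes give further values between the libraries labelled Axin2-positive. Cdh13, an adhesion protein gene of the cadherin family, stood at 14.9 FPKM (12.4 to 18.2) in the foot and 1.89 FPKM (1.13 to 2.67) in the back, a log2 ratio of 2.22 (1.62 to 2.95). Vcam1, a receptor for integrins, had 72.0 and 129 FPKM (-1.13), and none of 5 integrin genes was 2-fold apart. Of 12 contractile genes 1 was higher and 3 were lower, and Acta2, smooth muscle actin, had 1.67 FPKM (0.806 to 2.65) and 21.9 FPKM (20.4 to 23.4), a ratio of -3.34. Actb, the common actin gene, was higher in the foot here (574 and 202 FPKM, 1.2) and lower in the pair labelled negative (856 and 1062 FPKM, -1.06). Cyp26b1, which breaks down retinoic acid, had 10.8 FPKM (9.02 to 12.6) and 1.37 FPKM (1.15 to 1.58), a ratio of 2.1, and -0.04 in the pair labelled negative. Of 8 adipogenic and lipid genes 3 were lower and none higher, where 14.2% of all genes were lower. Among the 3 was Fasn, fatty acid synthase (1.79 FPKM in the foot and 6.56 FPKM in the back, -1.67). The proteoglycan gene Bgn was higher in both pairs (1.26 and 1.25).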
